A study of Homo sapiens with 3 samples.

Results

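The genes described here are 10 components of the machinery that drives a cell through G1, the interval between division and DNA replication. They are the cyclins CCND1, CCND3, CCNE1 and CCNE2, the kinases CDK2, CDK4 and CDK6, the kinase inhibitors CDKN1B and CDKN2C, and RB1. They were taken by gene name from the 58735 genes counted in each library, and all 10 averaged at least 1 CPM, the standard scaling of a gene's count to the library's total, over the libraries. RNA was sequenced from A549, an established human lung adenocarcinoma line, to ask how loss of DDX24, a DEAD-box RNA helicase studied as a splicing factor, changes the transcripts of lung cancer cells. The 3 libraries are Control-sh, DDX24-sh1 and DDX24-sh2, 1 library per condition. The last 2 carry different short hairpin RNAs (shRNAs) against DDX24, called sh1 and sh2 where values are listed. Per the study's methods, the lines were made with lentiviral pLKO.1 vectors and selected as stable populations in puromycin, and all were grown in F12K medium with fetal bovine serum, so transduction and drug selection were shared by the control. The methods name an empty vector as the control and a figure legend a control shRNA, so which of them Control-sh holds is not known. Stable lines had time to adapt after transduction, and with 1 line per hairpin the effect of DDX24 loss and the history of a line cannot be told apart.

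In G1, D-type cyclins bind CDK4 and CDK6 and start to phosphorylate RB1, the retinoblastoma protein, which holds E2F transcription factors inactive. Released E2F factors switch on the E-type cyclins, which bind CDK2, finish the phosphorylation of RB1 and open the way to DNA replication. Inhibitors of the INK4 family, such as CDKN2C (p18), block CDK4 and CDK6, whereas those of the CIP/KIP family, such as CDKN1B (p27), bind cyclin E with CDK2. Cyclin D1 is a frequent target of growth factor signalling in lung cancer, and A549 is known to lack the INK4 gene CDKN2A.

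The depth was similar in the libraries, with total counts between 17218884 and 18337471. Mitochondrial genes took 4.36% of the counts in Control-sh, 5.13% with sh1 and 7.04% with sh2, and their part in the results was not tested. DDX24 itself (ENSG00000089737) had 2010 counts in Control-sh, 637 with sh1 and 765 with sh2. After scaling this left 29.6% of the control level with sh1 and 36.0% with sh2. The deposited FPKM (counts scaled by gene length and library size) carry the hairpin names the other way round. They matched the counts for 100% of genes with at least 50 counts, to within 1%, only when the names were exchanged, against 5.23% and 5.17% of genes with the names as given. Throughout, DDX24-sh1 and DDX24-sh2 mean the libraries whose counts carry those names, and which hairpin made which library is not known. Among epithelial markers the 5 listed genes were detected, and their summed level was 5333 CPM in Control-sh, 5310 with sh1 and 4958 with sh2. Most of the sum came from KRT8 and KRT18, at 3791 and 1450 CPM in Control-sh, while EPCAM had 32, 29 and 29 counts. Within that list KRT19 was at least 1.5-fold higher and CDH1 at least 1.5-fold lower in both shRNA libraries. The leukocyte markers summed to between 4.43 and 8.14 CPM, nearly all of it CD14, with PTPRC and CD3E at 0. Endothelial markers summed to between 0.609 and 1.05 CPM. Fibroblast markers summed to 10.5 CPM in Control-sh, 16.8 with sh1 and 13.5 with sh2. The largest part was COL1A1 (139, 174 and 143 counts), whose ratios were within counting error in both shRNA libraries. COL3A1 had 2, 27 and 8 counts, and COL1A2 and DCN had at most 3. LUM (27, 80 and 68 counts) and PDGFRA (10, 25 and 22 counts) were at least 1.5-fold higher in both shRNA libraries. With sh2 the PDGFRA ratio was within counting error. Of all genes averaging at least 1 CPM, 4.23% were that much higher in both and 4.72% that much lower. The part of these markers in the results below was not tested.

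With 1 library per condition no test between conditions is possible and no difference below has a replicate check. Each ratio of an shRNA library to Control-sh is a log2 ratio of scaled counts, followed by its exact 95% interval from the 2 counts (conditional binomial, Clopper-Pearson). The intervals cover counting error only. They leave out how cultures vary, and without molecular identifiers 2 reads may come from 1 molecule. Both ratios of a gene share the Control-sh library. In bulk RNA, fewer cells making a transcript and less transcript per cell cannot be told apart, which also holds for a different share of cells in G1.

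Of the 10 genes, CCNE1 was at least 1.5-fold higher in both shRNA libraries, and CCND3 and CDK6 were at least 1.5-fold lower in both. Over all 13984 genes that average at least 1 CPM, 4.23% passed the rule in the higher direction and 4.72% in the lower direction, so 1 of 10 and 2 of 10 stand beside those shares. In DDX24-sh1 alone 1 of the 10 was higher and 2 were lower by that fold, beside 7.59% and 8.25% of all genes tested, and in DDX24-sh2 alone 2 were higher and 2 lower, beside 8.6% and 9.51%. At 2-fold, 0 of the 10 were higher and 1, CDK6, was lower in both, beside 1.19% and 1.38% of all genes tested. The counting interval lay above 0 in both libraries for CCND1 and CCNE1 (2 of 10, beside 14.0% of all genes) and below 0 in both for CCND3, CDK2, CDK6 and CDKN1B (4 of 10, beside 20.6%). Deeply counted genes pass this interval rule at small ratios. The 10 genes averaged from 2.04 CPM (CCNE2) to 492 CPM (CCND1), and the shares were not matched for depth, so no excess among the 10 can be read from them. The median log2 ratio of the 10 genes was -0.27 with sh1 and 0.03 with sh2, beside -0.02 and -0.03 over all genes tested. Of the D cyclins, CCND1 lay above the control and CCND3 below it.

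**Figure D1:**
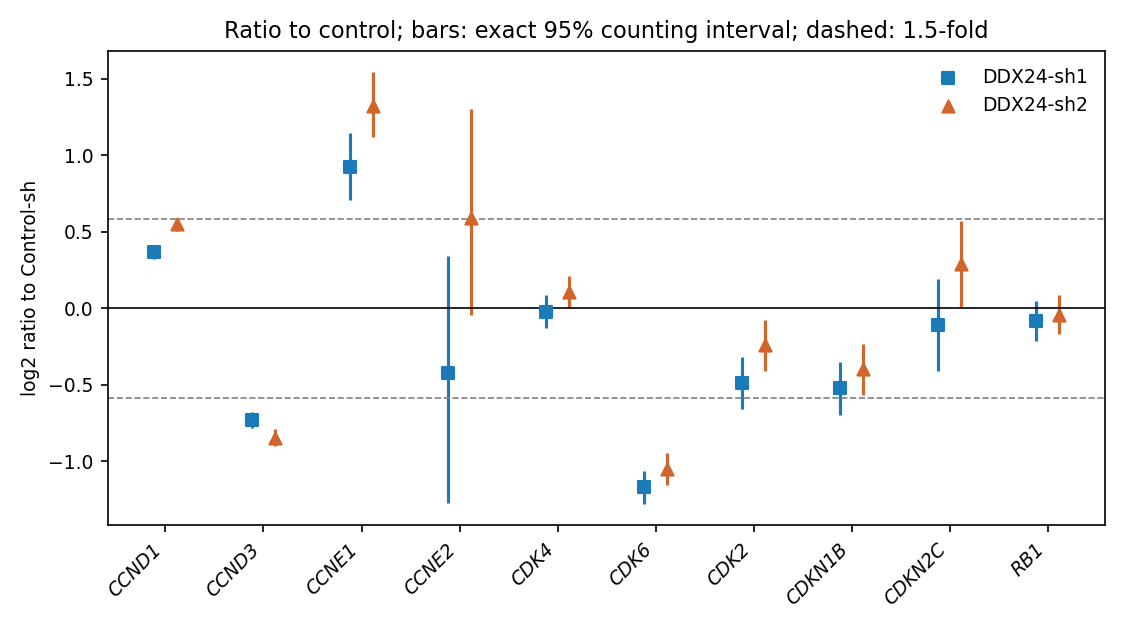
Log2 ratio of each of the 10 genes (horizontal axis) to Control-sh, for DDX24-sh1 (squares) and DDX24-sh2 (triangles), with bars for the exact 95% counting interval and dashed lines at 1.5-fold. CCNE1 lies above the upper dashed line and CCND3 and CDK6 lie below the lower one in both libraries, while the bar of CCNE2 in DDX24-sh1 runs from -1.27 to 0.34.

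For each of these 3 genes, 1 stretch before a start site is shown, because they passed the 1.5-fold rule in both libraries, 1 upwards and 2 downwards. CDK6 and CCND3 have further windows, which are described below and not shown. They are parts of RefSeq promoter windows on GRCh38.p14, which run from 250 bases before to 50 after a transcript start, with the bases that the annotation assigns to untranslated exons left out. They are written 5′ to 3′ on the gene's strand. Capitals mark GC boxes, the 6-base motif GGGCGG on either strand that SP/KLF factors bind.

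CCNE1, chr19:29811741-29811897, plus strand: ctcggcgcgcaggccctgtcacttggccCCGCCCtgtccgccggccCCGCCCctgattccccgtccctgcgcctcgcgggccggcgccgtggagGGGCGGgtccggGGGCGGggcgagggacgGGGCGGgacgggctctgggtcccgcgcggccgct
CCND3, chr6:41941849-41942058, minus strand: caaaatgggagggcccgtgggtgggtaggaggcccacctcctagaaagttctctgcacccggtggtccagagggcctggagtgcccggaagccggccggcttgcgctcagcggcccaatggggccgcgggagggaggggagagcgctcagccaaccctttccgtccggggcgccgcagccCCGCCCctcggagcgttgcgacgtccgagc
CDK6, chr7:92836595-92836823, minus strand: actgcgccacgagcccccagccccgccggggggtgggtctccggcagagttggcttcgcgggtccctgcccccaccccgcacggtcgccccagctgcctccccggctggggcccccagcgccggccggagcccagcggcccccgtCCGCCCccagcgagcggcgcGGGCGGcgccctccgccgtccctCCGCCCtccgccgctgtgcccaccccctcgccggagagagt

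CCNE1 showed 5 GC boxes in the printed stretch and 7 in its whole window. The CDK6 stretch held 3, and the window it was cut from also held a CACGTG E-box just past the start. The other CDK6 window, chr7:92833910-92834209, held 0 GC boxes and 0 E-boxes. The CCND3 stretch, which precedes an internal start of that gene, held 1 of the 4 boxes of its window. Of the other CCND3 windows, chr6:42048639-42048938 held 5 GC boxes and chr6:41939156-41939455 held 0. RefSeq windows were matched for 7 of the 10 genes, 12 windows in all. CCND1, CCNE2 and CDK2 had none among them. GC boxes are common letters, found in 44.9% of 34943 promoter windows of the same length. The E-box CACGTG, found in 7.23% of windows, occurred 3 times in the CDK4 window. It also lay in 2 of the 3 windows of CDKN2C. An E2F site was searched on both strands as TTTCCCGC, TTTCGCGC, TTTGCCGC or TTTGGCGC, and overlaps with the other motifs were allowed. It was found in 3.3% of all windows and in 0 of the 12 windows of these genes. The cyclic AMP response element TGACGTCA (1.84% of windows) and the AP-1 site TGACTCA or TGAGTCA (4.96%) also had no match in the 12. A match is a run of letters and says nothing of binding, and its absence concerns these windows alone.

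Levels of different genes can be compared only per length. They are given here as FPKM from counts, the scaled CPM divided by the deposited gene length in kilobases, which is the union of annotated exons and so longer than most transcripts. In Control-sh the order from high to low was CCND1, CCND3, CDK4, CDKN1B, CDK6, CDK2, RB1, CCNE1, CDKN2C and CCNE2. CCND1 stood at 81.5 FPKM and CCNE2 at 0.426. Neighbours in this order differed beyond counting error except CDK6 and CDK2, whose ratio had an interval of 0.968 to 1.16, and CDK2 and RB1, at 0.975 to 1.19. Both shRNA libraries had another order, CCND1, CCND3, CDK4, CCNE1, CDKN1B, RB1, CDK2, CDK6, CDKN2C and CCNE2. CCNE1 stood at place 8 in Control-sh and at place 4 in both shRNA libraries, and CDK6 at place 5 and place 8. In DDX24-sh2 the neighbours RB1 and CDK2 did not differ beyond counting error (0.961 to 1.18).

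**Figure D2:**
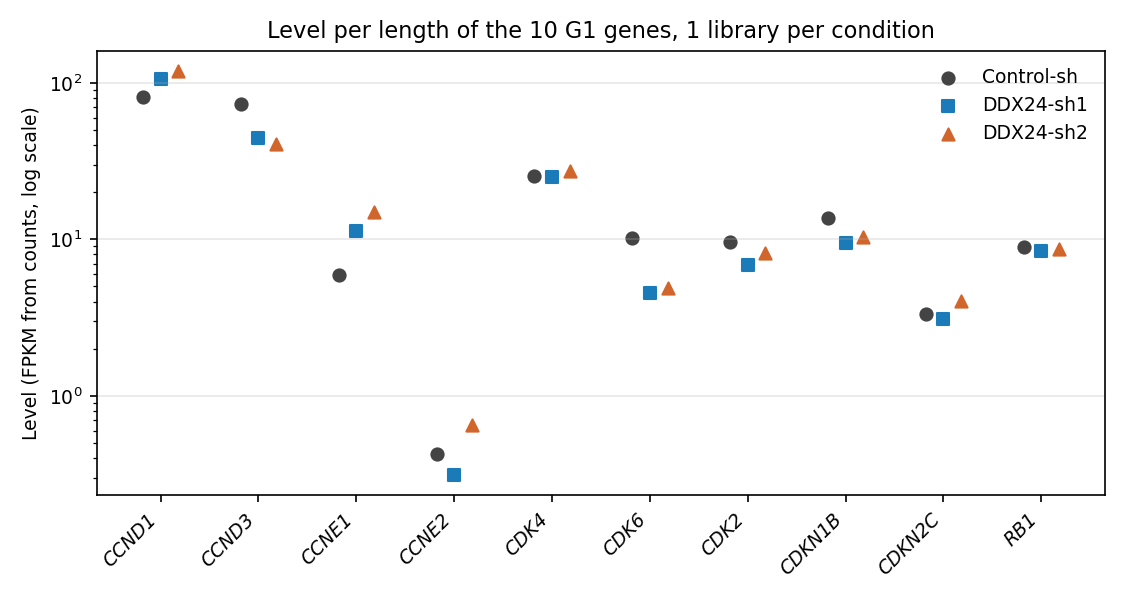
Level per length of the 10 genes (FPKM from counts, log scale) in Control-sh (circles), DDX24-sh1 (squares) and DDX24-sh2 (triangles), 1 library each, so no error bar between cultures can be drawn. The D cyclins lie at the top with between 40.8 and 119 FPKM and CCNE2 at the bottom with between 0.311 and 0.655 FPKM.

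The D-type cyclins lay on opposite sides of the control. CCND1 (ENSG00000110092, chr11:69641087-69654474, plus strand, GRCh38) encodes cyclin D1, the D cyclin most tied to growth factor signals. It had 6717 counts in Control-sh, 9286 with sh1 and 10385 with sh2, or 81.5, 105 and 119 FPKM. Control-sh was the lowest library and DDX24-sh2 the highest. The log2 ratio to control was 0.37 (0.32 to 0.41) with sh1 and 0.55 (0.50 to 0.59) with sh2, so 129% and 146% of control, both below 1.5-fold. CCND1 exons share 497 bases with LTO1 on the opposite strand, which had 350, 400 and 440 counts. Part of the CCND1 counts is therefore uncertain without strand. CCND3 (ENSG00000112576, chr6:41934933-42050357, minus strand) encodes cyclin D3, best known from lymphocyte development and present in many epithelia. Its counts were 7258 in Control-sh, 4686 with sh1 and 4272 with sh2, or 73.3, 44.2 and 40.8 FPKM. Here Control-sh was the highest library. The log2 ratio was -0.73 (-0.78 to -0.68) with sh1 and -0.85 (-0.90 to -0.79) with sh2, which left 60.3% and 55.7% of control. Of all genes tested, 5.06% had a lower ratio than CCND3 with sh1 and 4.49% with sh2.

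The balance between both D cyclins within a library does not depend on how libraries are scaled. CCND1 made up 48.1% of their joint counts in Control-sh (exact binomial interval 47.2 to 48.9), 66.5% with sh1 (65.7 to 67.2) and 70.9% with sh2 (70.1 to 71.6). Per length, CCND1 exceeded CCND3 by a factor of 1.11 in Control-sh, 2.38 with sh1 and 2.92 with sh2. The odds of a D cyclin count falling on CCND1 were 2.14 times those of the control with sh1 (2.04 to 2.25) and 2.63 times with sh2 (2.50 to 2.76). Their summed level was nearly the same in the 3 libraries, at 154.8, 149.3 and 159.9 FPKM, or 96.4% and 103.3% of control. The remaining D cyclin, CCND2, had 0 counts in each library, which allows up to 0.176 CPM in Control-sh, 0.164 with sh1 and 0.166 with sh2.

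Of the E-type cyclins, CCNE1 was higher and CCNE2 was too sparse to place. CCNE1 (ENSG00000105173, chr19:29811898-29824308, plus strand) encodes cyclin E1, the activator of CDK2 at the entry to S phase. It had 258 counts in Control-sh, 526 with sh1 and 686 with sh2, or 5.93, 11.3 and 14.9 FPKM. Both shRNA libraries stood above the control, at 1.90-fold and 2.50-fold. The log2 ratio was 0.92 (0.71 to 1.15) with sh1 and 1.32 (1.12 to 1.54) with sh2, and 97.1% and 98.6% of all genes tested had a lower ratio. CCNE2 (ENSG00000175305, chr8:94879770-94896678, minus strand) encodes cyclin E2, a close relative of cyclin E1. It had 32, 25 and 52 counts, or 0.426, 0.311 and 0.655 FPKM, with DDX24-sh1 below the control and DDX24-sh2 above it. Its log2 ratios were -0.43 (-1.27 to 0.34) and 0.59 (-0.04 to 1.30), so a difference from control was not detectable at this depth in either library. In addition, 1629 bases of its exons lie opposite exons of INTS8, which had between 988 and 1108 counts, and the sources used here do not say whether the counting used strand. CCNE1 made up 89.0% of the E cyclin counts in Control-sh (84.8 to 92.3), 95.5% with sh1 (93.4 to 97.0) and 93.0% with sh2 (90.9 to 94.7). The odds ratio against control was 2.61 (1.46 to 4.69) with sh1 and 1.64 (0.995 to 2.66) with sh2. The summed E cyclin level was 6.35 FPKM in Control-sh, 11.6 with sh1 and 15.6 with sh2, or 182% and 245% of control.

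Of the partner kinases of the D cyclins, CDK6 was lower and CDK4 close to control. CDK6 (ENSG00000105810, chr7:92604921-92836594, minus strand) had 2132 counts in Control-sh, 1016 with sh1 and 1089 with sh2, or 10.2, 4.53 and 4.92 FPKM. Both shRNA libraries held less than the control and lay close to each other. The log2 ratio was -1.17 (-1.28 to -1.06) with sh1 and -1.05 (-1.16 to -0.94) with sh2, which left 44.5% and 48.3% of control. Of all genes tested, 1.43% and 2.73% had a lower ratio, and among the 10 genes CDK6 had the lowest in both libraries. CDK4 (ENSG00000135446, chr12:57747727-57756013, minus strand) had 1380, 1455 and 1573 counts, or 25.5, 25.1 and 27.5 FPKM. Its log2 ratio was -0.02 (-0.13 to 0.08) with sh1 and 0.11 (0.0029 to 0.21) with sh2. Its exons share 1369 bases with TSPAN31 on the opposite strand, which had between 348 and 415 counts, so part of the CDK4 counts is uncertain without strand.

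CDK4 made up 39.3% of the joint CDK4 and CDK6 counts in Control-sh (37.7 to 40.9), 58.9% with sh1 (56.9 to 60.8) and 59.1% with sh2 (57.2 to 61.0). Per length, CDK4 exceeded CDK6 by a factor of 2.50 in Control-sh, 5.54 with sh1 and 5.59 with sh2. The odds ratio against control was 2.21 (1.99 to 2.46) with sh1 and 2.23 (2.01 to 2.48) with sh2, and the shRNA libraries differed from each other by less than counting error (odds ratio 1.01, 0.901 to 1.13). The sum of both kinases was 35.7 FPKM in Control-sh, 29.6 with sh1 and 32.4 with sh2, or 83.0% and 90.8% of control. CDK2 (ENSG00000123374, chr12:55966769-55972784, plus strand), the partner of the E cyclins, had 640, 489 and 572 counts, or 9.63, 6.87 and 8.14 FPKM. It was below the control in both shRNA libraries, by less than 1.5-fold, with log2 ratios of -0.49 (-0.66 to -0.32) and -0.24 (-0.41 to -0.08). CCNE1, its activator, and CDK2 thus had ratios of opposite sign in both libraries.

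**Figure D3:**
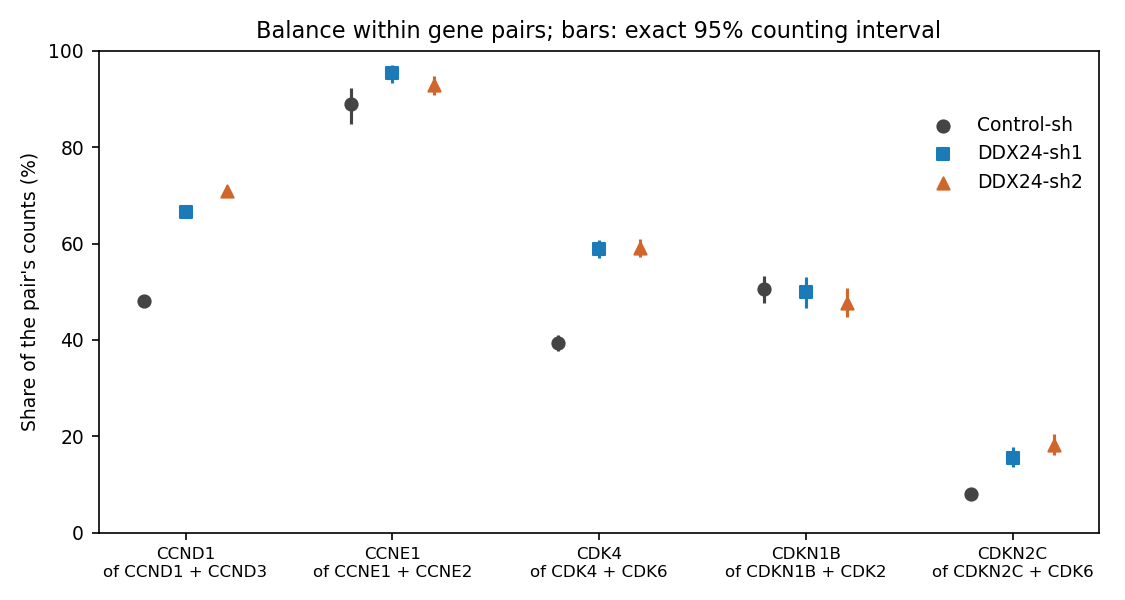
Share of the first gene in the joint counts of each gene pair (vertical axis, %) in Control-sh (circles), DDX24-sh1 (squares) and DDX24-sh2 (triangles), with bars for the exact 95% binomial interval, which covers counting error only. The share of CCND1 runs from 48.1% in Control-sh to 70.9% in DDX24-sh2 and that of CDK4 from 39.3% to 59.1%, while that of CDKN1B beside CDK2 stays between 47.8% and 50.5%.

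Both inhibitors differed from control by less than 1.5-fold. CDKN1B (ENSG00000111276, chr12:12715058-12722371, plus strand) encodes p27, which binds and inhibits cyclin E with CDK2 and is destroyed as cells enter S phase. It had 653 counts in Control-sh, 486 with sh1 and 523 with sh2, or 13.6, 9.45 and 10.3 FPKM. Both shRNA libraries were below the control, at 69.5% and 75.8% of it, with log2 ratios of -0.52 (-0.70 to -0.35) and -0.40 (-0.57 to -0.23). Its balance with CDK2 was alike in the 3 libraries, with CDKN1B at 50.5%, 49.8% and 47.8% of the joint counts. The odds ratio against control was 0.974 (0.822 to 1.15) with sh1 and 0.896 (0.760 to 1.06) with sh2. CDKN2C (ENSG00000123080, chr1:50960745-50974633, plus strand) encodes p18, an INK4 inhibitor that binds CDK4 and CDK6. It had 188, 187 and 243 counts, or 3.32, 3.08 and 4.06 FPKM. Its log2 ratio was -0.11 (-0.41 to 0.19) with sh1 and 0.29 (0.0089 to 0.57) with sh2. Set against CDK6, CDKN2C made up 8.10% of their joint counts in Control-sh, 15.5% with sh1 and 18.2% with sh2. The odds ratios were 2.09 (1.67 to 2.61) and 2.53 (2.05 to 3.12), with the lower CDK6 count in both libraries as the larger part of the ratio.

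RB1 (ENSG00000139687, chr13:48303726-48599436, plus strand) is the substrate on which these kinases converge. The larger of its 2 log2 ratios in size, -0.0822 with sh1, was smaller than the larger ratio of any other of the 10. With sh1 alone, CDK4 had a smaller one (-0.0235). RB1 differed little from control in both libraries. It had 983 counts in Control-sh, 995 with sh1 and 1010 with sh2, or 8.93, 8.43 and 8.67 FPKM. Its log2 ratios were -0.08 (-0.21 to 0.05) and -0.04 (-0.17 to 0.09), and both intervals include 0. The counts give RNA levels only, and the phosphorylation that controls the RB1 protein was not measured here.

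Set directly against each other, the shRNA libraries differed beyond counting error at 7 of the 10 genes. DDX24-sh2 was above DDX24-sh1 for CCND1, CCNE1, CCNE2, CDK2, CDK4 and CDKN2C (6 of 10, beside 21.0% of all genes tested) and below it for CCND3 (1 of 10, beside 23.8%). The shares of all genes in this comparison were likewise not matched for depth. Over DDX24-sh1, the log2 ratio was 1.02 (0.36 to 1.83) for CCNE2, 0.40 (0.24 to 0.57) for CCNE1 and 0.18 (0.14 to 0.22) for CCND1. The intervals of CDK6, CDKN1B and RB1 included 0. For CCNE2, CDK4 and CDKN2C the shRNA libraries also lay on opposite sides of the control (3 of 10, beside 17.1% of all genes tested), though the ratio to control was within counting error for CCNE2 in both and for CDK4 and CDKN2C with sh1. DDX24 itself was higher in DDX24-sh2 by 0.28 (0.13 to 0.44).

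**Figure D4:**
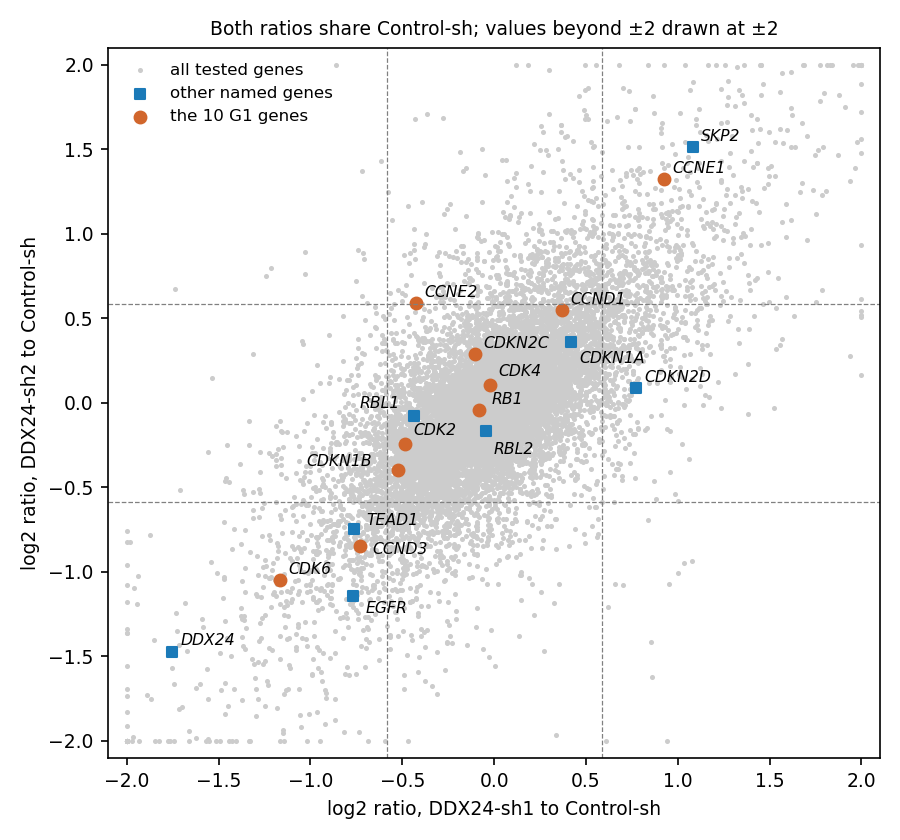
Log2 ratio to Control-sh in DDX24-sh1 (horizontal axis) and DDX24-sh2 (vertical axis) for all genes tested (grey), the 10 G1 genes (circles) and other genes named in the text (squares), with dashed lines at 1.5-fold and values beyond 2 drawn at the edge. Both ratios share Control-sh, so points spread along the diagonal even without a difference between conditions. CCNE1 lies near SKP2 in the upper right, and CCND3 and CDK6 lie in the lower left with EGFR and TEAD1.

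The remaining CIP/KIP and INK4 inhibitors include the most abundant of the class. CDKN1A, which encodes the p53 target p21, had 6174, 8846 and 8370 counts, or 118.6, 158.6 and 152.0 FPKM. Its log2 ratio was 0.42 (0.37 to 0.47) with sh1 and 0.36 (0.31 to 0.41) with sh2, higher in both by less than 1.5-fold and opposite in sign to CDKN1B. CDKN1C (p57) had 14, 25 and 19 counts, and both of its intervals included 0. CDKN2D (p19, an INK4 inhibitor) had 56, 104 and 63 counts, with log2 ratios of 0.77 (0.31 to 1.29) and 0.09 (-0.45 to 0.64). CDKN2A and CDKN2B had 0 counts in the 3 libraries. Their neighbour MTAP, named after its values were seen, had 7, 4 and 2. CDKN2C and CDKN2D were thus the INK4 genes detected. Of the other pocket proteins, RBL1 (p107) had 573, 453 and 573 counts, with log2 ratios of -0.44 (-0.62 to -0.26) and -0.08 (-0.25 to 0.09). RBL2 (p130) had 1024, 1063 and 966 counts, with -0.05 (-0.17 to 0.08) and -0.16 (-0.29 to -0.04).

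Around the 10 genes, 7 lists of the same pathway were read beside the shares of all genes tested that were 1.5-fold higher (4.23%) or lower (4.72%) in both libraries. The lists were written with earlier results of these data known, so the counts in them are description and not an independent comparison with those shares. Without a size limit, 34.6% of all genes were above control in both libraries and 40.2% below it. Among 12 genes that control the turnover of cyclins and inhibitors or the activity of CDK2, 1 was higher and 0 were lower (beside 4.23% and 4.72%). It was SKP2, the F-box protein that marks p27 for destruction, with 130, 297 and 396 counts. Its log2 ratio was 1.08 (0.79 to 1.40) with sh1 and 1.51 (1.24 to 1.82) with sh2. The median of that list was -0.02 with sh1 and 0.07 with sh2. Among 15 upstream regulators of CCND1 and of G1 entry, 4 were lower and 0 higher (beside 4.72% and 4.23%). In both libraries 11 were below control (beside 40.2%), and the median was -0.36 with sh1 and -0.38 with sh2. The 15 include FOXO1 and FOXO3, which are not drivers of G1 entry, and FOXO1 is among the 11. EGFR, a receptor that signals to CCND1, had 16717, 10516 and 8004 counts, with log2 ratios of -0.77 (-0.80 to -0.73) and -1.14 (-1.18 to -1.10). TEAD1, the DNA-binding partner of YAP1, had 6832, 4309 and 4304 counts, with -0.76 (-0.82 to -0.71) and -0.75 (-0.80 to -0.69). ERBB3, a partner of EGFR picked once its values were known, stood at 75, 40 and 42 counts, with -0.97 (-1.60 to -0.43) and -0.89 (-1.50 to -0.35). CCND1 itself had a positive ratio in both libraries, the opposite sign to these genes.

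No gene of the other 5 lists passed 1.5-fold in both libraries in either direction. Of 21 genes tested of the 22 E2F-dependent S phase genes, 5 were above and 9 below control in both libraries (beside 34.6% and 40.2% of all genes), with medians of -0.25 (sh1) and 0.02 (sh2). All 12 pocket proteins and E2F factors were tested, with medians of -0.17 and -0.09. The 5 tested genes of the DREAM complex and B-MYB, which hold cell cycle genes silent in quiescence or activate them late, were below control in both libraries (beside 40.2%), with medians of -0.35 and -0.22. Of 6 other genes of the cyclin and CDK families or their partners, the 4 tested had medians of -0.09 and 0.07. These were CDK1, CDK7, CCNH and MNAT1, none of them a D or E cyclin. The 4 tested of 6 other CDK inhibitors had medians of 0.54 and 0.20. Beside these, the median of all genes tested was -0.02 and -0.03, and nothing in the lists is shown to be particular to them.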

How the data were processed

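RNA of 3 A549 libraries was sequenced, 1 per condition, grouped by the sample labels. The authors deposited raw counts for each gene and FPKM made from the same counts. The submitters' processing notes name Bowtie2 2.0.6, TopHat2 2.0.9, Cufflinks 2.1.1 and Cuffdiff 2.1.1. The counting tool, strand setting and genome build are not given in the sources used here. Gene starts, ends and exon lengths matched GENCODE 29 (GRCh38). Counting errors from overlapping genes therefore stay with the values.

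Ratios were computed from the counts with TMM scaling (edgeR 4.0.16, R 4.3.3) and a prior count of 2, and intervals with scipy 1.17.1 in Python 3.11.15. Figures used matplotlib 3.10.9. No p-value was computed. Genes averaging at least 1 CPM were tested against a 1.5-fold threshold in both shRNA libraries. The 1.5-fold rule and the counting interval were tried on simulated counts that held counting error only and were scaled by total counts. The changes planted in them were larger than any reported for the 10 genes, so the rule was not tried on changes of the size seen. TMM scaling, the pair odds ratios and variation between cultures were not simulated. The genes named were the 10 G1 genes, DDX24, 8 listed family members and, in each pathway list, up to 2 genes per direction past 1.5-fold in both libraries with the largest smaller ratio and a mean of at least 5 CPM. Of the listed genes past 1.5-fold, 1 is not reported here. The genes and lists were chosen with earlier results of these data known. Alternatives were scaling by DESeq2 1.42.0 size factors or by total counts, a prior count of 0.5, the deposited FPKM as log2(FPKM + 0.1) with hairpin names as given or exchanged, other filters (none, 10 CPM), 2-fold, and each hairpin alone.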

Additional observations from a re-analysis of the deposited data

Results flagged for a closer look

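At 3 of the 10 genes the shRNA libraries lay on opposite sides of the control and differed from each other beyond counting error, as did 17.1% of all genes tested. That share was not matched for depth. The difference from control was within counting error for CCNE2 in both libraries and for CDK4 and CDKN2C with sh1. The difference between hairpins was not tested, since each has 1 library. CCNE2 had a log2 ratio of -0.43 with sh1 and 0.59 with sh2, from 25 and 52 counts. CDKN2C had -0.11 with sh1 and 0.29 with sh2, from 187 and 243 counts. CDK4 had -0.0235 with sh1 and 0.11 with sh2, from 1455 and 1573 counts, both within 1.5-fold of the control.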

How the results depend on the processing

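The 20 log2 ratios of the 10 genes kept their direction and stayed within counting error of the reported values under scaling by DESeq2 size factors or by total counts, a prior count of 0.5 and the deposited FPKM with exchanged hairpin names. With the FPKM names as given, 6 of the 20 changed sign, those of CCNE2 (0.53 with sh1 and -0.35 with sh2), CDK4 (0.12 and -0.01) and CDKN2C (0.29 and -0.09). DDX24 was then at -1.45 with sh1 and -1.72 with sh2, and the median of the 10 genes changed sign in both libraries, to 0.04 with sh1 and -0.22 with sh2. At 2-fold, 0 of the 10 genes were higher and 1 was lower in both libraries, and 0 of the listed pathway genes were lower. With DDX24-sh2 alone 2 of the 10 were at least 1.5-fold higher, CCNE1 and CCNE2, the latter from 52 counts. The median of all genes lay between -0.03 and 0.0029 over these scalings. Filters of 10 CPM or none left the counts of genes past 1.5-fold within 1.5 times. No paired analysis was possible because each condition has 1 library, and for the same reason no library could be left out. Depth limits CCNE2 most, with 25 to 52 counts per library.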
